A study of Oryctolagus cuniculus with 54 samples.

Results

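Lung gene expression of preterm rabbit pups was compared between 7 days (P7) and 3 days (P3) after a delivery by Caesarean section on day 28 of gestation. The comparison took the P3 and P7 libraries of sequencing run 2, which were 3 P3 animals and 2 P7 animals. The other P7 animal was sequenced in run 3 and was used only to check the direction of a difference from P3, so 6 of the 54 libraries of the series were concerned. All pups were New Zealand White rabbits kept in incubators at 21% oxygen and fed a milk replacer through an orogastric tube, so both groups shared preterm birth, room air and hand feeding. P3 pups had a gestational age of 31 days and P7 pups of 35 days. RNA came from a homogenate of the right lung, with every cell type of the organ mixed, and according to the study's methods each lung came from a pup of a different dam. Pups taken 1 h after the same preterm delivery (P0, 3 animals of run 2) gave the starting level. Pups born naturally on day 31 and kept with their mothers gave the same gestational ages without preterm birth, at birth (T31) and 4 days later (T35).

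In the rabbit, as in humans, birth before term leaves the lung with wide saccules that still have to be divided into alveoli. After delivery the walls thin, capillaries and elastic fibres are laid down in new septa, and resident macrophages populate the airspaces. A pup born early passes through these steps while breathing air and without the mother's milk. The comparison of P7 with P3 asks how far the transcriptome of such a lung still moved once the days after delivery had passed.

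Libraries came from a 3′ end kit (QuantSeq FWD), in which reads begin near the end of a transcript whatever its length. Counts per library lay between 6962801 and 7778938 in the 6 libraries, and 15833 to 15939 genes had at least 1 count. Levels are given as CPM, the counts scaled to a common total in each library, and fold changes after TMM normalization. Genes appear in the table as Ensembl identifiers, and none of the 29587 could be paired with a symbol (0 matches). The genes below are therefore given without name or function, and lung and cell type markers were not analysed here. No sequence is shown. In such a homogenate fewer cells of a type and less RNA per cell cannot be told apart.

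P7 animal 3, 1 of the 2 P7 animals compared, stood apart in a small set of genes. In this animal 12 of the 13791 genes tested were over 16-fold below the lowest P3 animal, and 4 were over 16-fold above the highest. For P7 animal 4 these numbers were 3 and 0, and for the P7 animal of run 3 they were 3 and 1. Each P3 animal set against the other two P3 animals had 0 to 2 such genes below and 1 to 5 above. The 12 genes together held 1.89% to 2.24% of the counts in the P3 animals, 2.07% in P7 animal 4 and 2.15% in the P7 animal of run 3. In P7 animal 3 they held 0.0496%. Low shares were also found outside P7, with 0.049% in P0 animal 3 and 0.0791% in F28 animal 2, a fetus of day 28. Of the 12 genes, 10 were over 16-fold below every P3 animal in P0 animal 3 and 8 in F28 animal 2, and 0 or 1 in each other library plotted. The 4 genes above did not share 1 pattern. One was at 7673 CPM in P7 animal 3, 7164 CPM in P0 animal 3 and 9147 CPM in F28 animal 2, against 13.1 to 31.3 CPM in the other libraries. Another was also raised in these 3 libraries, at 9.96 to 13.02 CPM, and the other 2 were highest in P7 animal 3, at 116 and 183 CPM. The first of these 2 had 4.43 to 4.80 CPM at P3, 10.6 CPM in P7 animal 4 and 25.3 CPM in the P7 animal of run 3. The second had 0.908 to 9.54 CPM at P3 and 4.00 CPM in P7 animal 4. It was at 16.3 CPM in the P7 animal of run 3 and 16.5 CPM in F28 animal 2. F28 animal 2 was sequenced in all 3 runs, and its share of counts in the 12 genes was low in each, at 0.025%, 0.0791% and 0.0602%. None of the 16 genes was called between P7 and P3 (0 of 16), against 0.0725% of all genes tested. They were chosen for the distance of 1 P7 animal, which also widens their spread. The count therefore does not show whether this animal affected the calls.

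**Figure D1:**
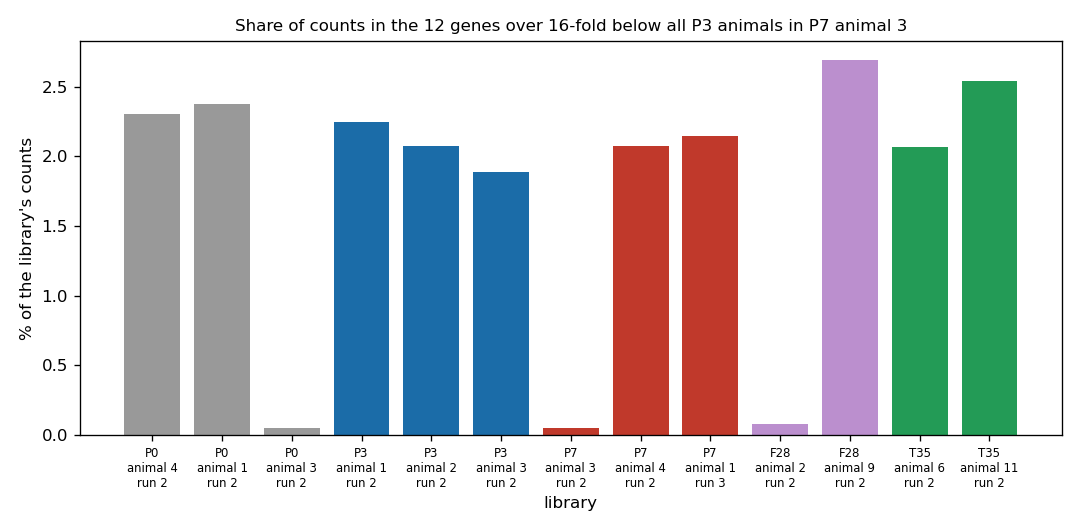
Share of each library's counts, in percent, held by the 12 genes that lay over 16-fold below every P3 animal in P7 animal 3. Bars are single libraries. P7 animal 3, P0 animal 3 and F28 animal 2 lie under 0.08%, and the 10 other libraries lie between 1.89% and 2.69%.

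Few genes separated P7 from P3. Of 13791 genes tested with edgeR's quasi-likelihood test, 10 were called, meaning a fold change above 2 and a Benjamini-Hochberg adjusted p of at most 0.05. This is 0.0725% of the genes tested. Expression was higher at P7 for 8 of them (0.058%) and lower for 2 (0.0145%). In the same fit P3 against P0 gave 355 calls (2.57%), 262 higher and 93 lower, and P7 against P0 gave 580 (4.21%), 420 higher and 160 lower. The difference between these counts was not tested, and the P3 and P7 animals stand in more than one of the comparisons. The median standard error of a log2 fold change was 0.276 for P7 against P3 and 0.248 for P3 against P0. Without the fold limit 16 genes passed (0.116%), and the 6 additional genes changed by less than 2-fold, 5 upwards with log2 fold changes of 0.60 to 0.99 and 1 downwards by -0.70. At an unadjusted p under 0.05 there were 1287 genes (9.33%), of which 705 were higher and 582 lower at P7.

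The count of 10 depended on single animals. Without P7 animal 3 the same test called 0 genes, with 967 at an unadjusted p under 0.05, and without P3 animal 2 it called 1. That call was not 1 of the 10 genes (0 shared). A fit of 21 animals took in the P7 animal of run 3, with a term for the run. It called 1 gene, which was 1 of the 10 (gene E below, edgeR adjusted p = 0.00518), and DESeq2 on the 12 libraries called 63. The sign of all 10 genes was the same in every fit tried that tested them. These fits reuse the run 2 libraries on which the genes were chosen, so a kept sign is largely built in.

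**Figure D2:**
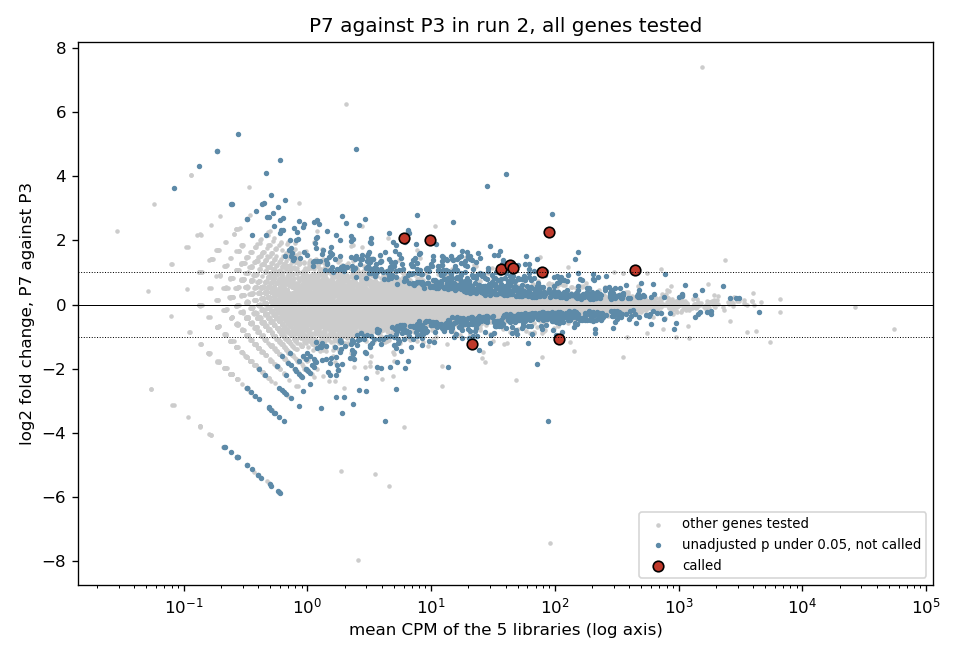
Log2 fold change of P7 against P3 (vertical axis) by the mean level of the 5 libraries in CPM (horizontal log axis) for the 13791 genes tested. Red points are the 10 called genes, blue points other genes at an unadjusted p under 0.05, and dotted lines mark 2-fold. The called genes lie between 6.08 and 441 CPM.

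The strongest rise among the called genes was that of ENSOCUG00000013106. Its level was 30.2, 25.4 and 49.4 CPM in the 3 P3 animals and 216 and 129 CPM in the 2 P7 animals, so the groups did not overlap. The log2 fold change was 2.26 with a standard error of 0.306, a 4.78-fold rise (edgeR adjusted p = 0.0412). In edgeR the gene did not pass with the 5 libraries compared alone (adjusted p = 0.162) or without a filter on low counts (0.0561). It also did not pass in the fit of 21 animals (0.123). It passed in edgeR with the 8 preterm libraries of run 2 (0.0314), and with limma-voom (0.00751) and DESeq2 (1.57e-11). The P7 animal of run 3 had 35.7 CPM and lay within the range of the P3 animals. P0 animals had 5.8 to 7.5 CPM, and the fit gave a log2 fold change of 2.31 for P3 against P0 (adjusted p = 0.00299). The gene also rose in term pups of run 1, from 6.07 to 7.71 CPM at T31 to 31.7 to 53.5 CPM at T35, by 2.72 on the log2 scale (adjusted p = 0.00342). With term libraries of run 3 this change was 4.14 (adjusted p = 0.000153). T35 animals 6 and 11 had 48.2 and 53.5 CPM in run 1, 156 and 183 CPM in run 2, and 150 and 163 CPM in run 3. The runs thus differed mainly between run 1 and the other two, and the P7 animal of run 3 was far below the T35 animals of its own run. In run 2 the P7 level stood beside that of T35 with a log2 difference of -0.11 (adjusted p = 0.941).

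ENSOCUG00000010247 was a gene of low level that rose at each step. Its P0 animals had 0.289 to 0.540 CPM, which were 2 to 4 reads. The P3 animals had 3.09, 2.28 and 2.46 CPM, or 17 to 22 reads, and the P7 animals 12.2 and 10.3 CPM. In the P7 animal of run 3 it was at 13.8 CPM, above both P7 animals of run 2. The log2 fold change from P3 to P7 was 2.07 ± 0.355 (SE, adjusted p = 0.0442), and that from P0 to P3 was 2.56 ± 0.452 (adjusted p = 0.00385). T35 animals of run 2 had 3.00 and 5.01 CPM, below both P7 animals, yet the difference did not pass (log2 1.36, adjusted p = 0.16).

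The other 6 genes that rose are lettered A to F in the plot of the called genes, in the order of their fold change. Gene A had 5.06, 4.70 and 3.24 CPM in the P3 animals and 20.0 and 15.8 CPM in the P7 animals, a log2 fold change of 2.01 ± 0.252 (SE, adjusted p = 0.0159). The P7 animal of run 3 had only 3.86 CPM of gene A and fell among the P3 animals, the one gene of the 8 that rose in run 2 for which this animal lay below the P3 mean. Gene B had 27.1, 22.4 and 33.3 CPM at P3 against 76.8 and 57.5 CPM at P7, and 48.7 CPM in the animal of run 3. For genes A and B the P7 animals of run 2 were thus well above every P3 animal, and the third animal followed for gene B only.

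Genes C and D had similar levels in all 3 P7 animals. Gene C had 30.8, 30.2 and 29.8 CPM at P3 and 68.4 and 69.3 CPM at P7, with 82.0 CPM in the animal of run 3. Gene D had 31.7, 20.4 and 22.8 CPM at P3 and 57.9 and 51.9 CPM at P7, with 58.6 CPM in the animal of run 3. Gene D differed from the other genes in its term course, which is taken up further on.

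Gene E was the most abundant of the called genes, and its P7 level exceeded that of any term animal of the same age. It had 279, 267 and 361 CPM at P3, 742 and 557 CPM at P7 and 787 CPM in the P7 animal of run 3. Gene F had 64.6, 49.6 and 50.6 CPM at P3, 111 and 118 CPM at P7 and 96.9 CPM in run 3. The log2 fold changes of genes B to F were 1.03 to 1.24, with adjusted p between 0.0159 and 0.0475.

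**Figure D3:**
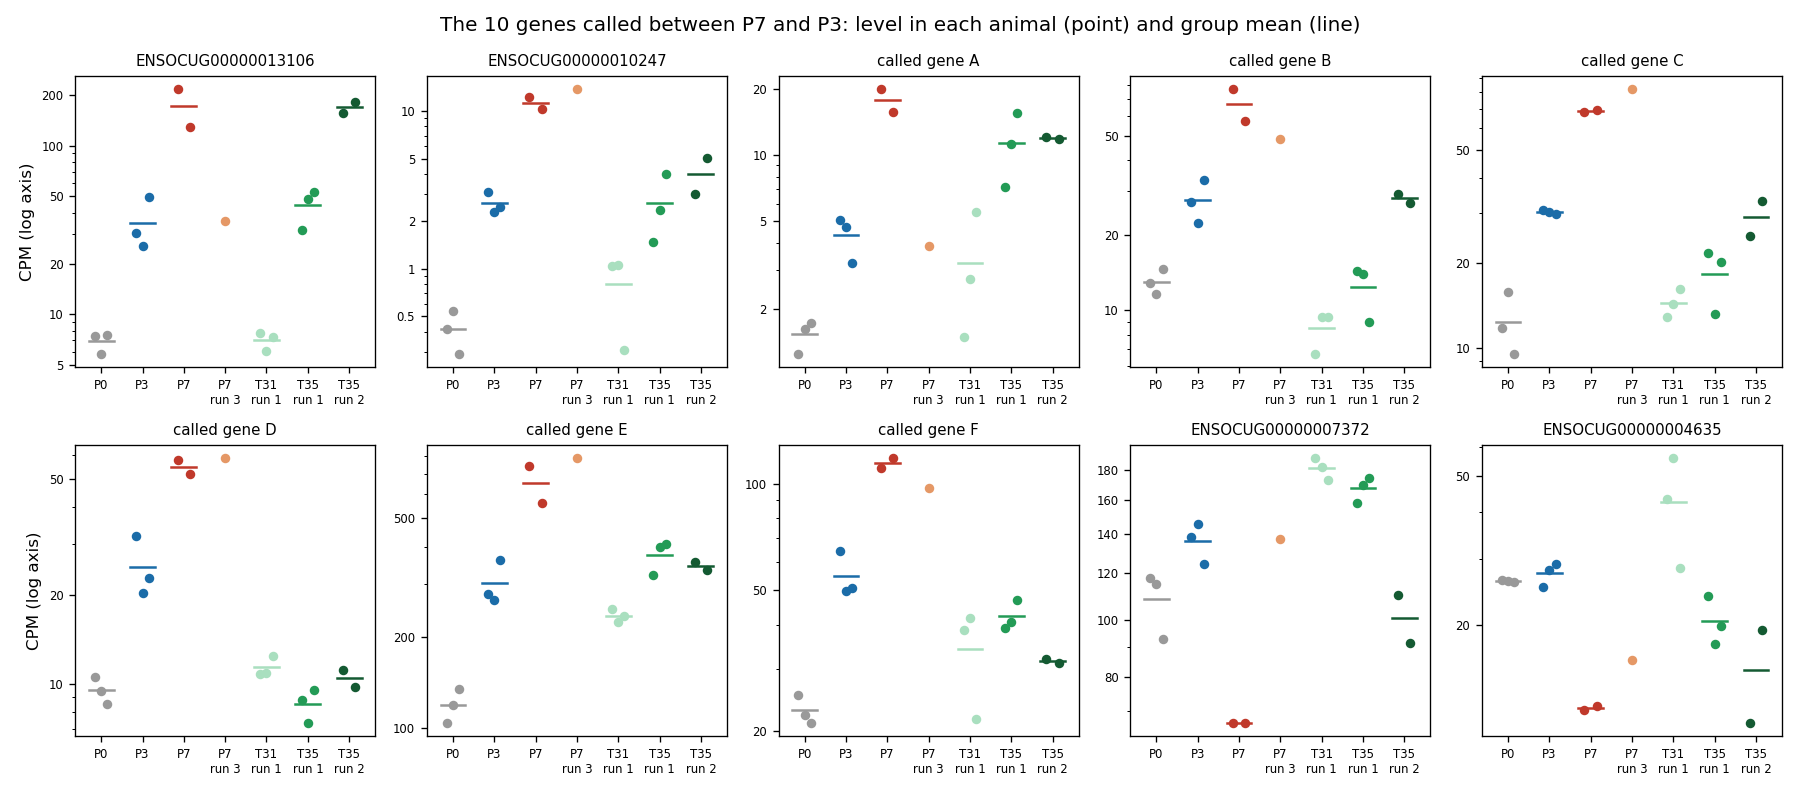
Level in CPM (log axes) of the 10 genes called between P7 and P3, by group, with 1 point per library and a line at the mean. P0, P3 and P7 are preterm animals of run 2, the orange point is the P7 animal of run 3, and green points are term animals at T31 and T35. The 8 genes that rose climb from P0 to P3 to P7 without overlap, and the 2 that fell are no lower at P3 than at P0 on average.

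All 8 genes that rose from P3 to P7 had also stood higher at P3 than at P0. Their log2 fold changes for P3 against P0 were 1.06 to 2.56, with adjusted p of at most 0.00645, and those for P7 against P0 were 2.25 to 4.63. P3 is the later group of one step and the earlier group of the other, so both steps rest on the same 3 animals. In each of the 8 genes every P0 animal lay below every P3 animal, and every P3 animal below both P7 animals. Over all genes tested 382 (2.77%) climbed in this way and 133 (0.964%) descended without overlap. A further 442 genes (3.2%) were lowest at P3 and 329 (2.39%) highest at P3, again with no overlap between the days. For P7 against P3 alone, 2094 genes (15.2%) had both P7 animals above all P3 animals and 1497 (10.9%) both below, and these included all 10 called genes.

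Expression fell between P3 and P7 for 2 genes, and neither had fallen between P0 and P3. ENSOCUG00000007372 had 139, 146 and 125 CPM in the P3 animals and 66.6 and 66.8 CPM in the P7 animals of run 2, a log2 fold change of -1.06 ± 0.144 (SE, adjusted p = 0.0159). The P7 animal of run 3 had 138 CPM, as high as the P3 animals. ENSOCUG00000004635 had 25.3, 28.1 and 29.1 CPM at P3 and 11.8 and 12.1 CPM at P7, a log2 fold change of -1.23 ± 0.213 (adjusted p = 0.045). In the animal of run 3 it was at 16.1 CPM, below all P3 animals. At P0 the first gene had 92.8 to 118 CPM and the second 26.0 to 26.3 CPM. P3 against P0 gave log2 fold changes of 0.29 (adjusted p = 0.209) and 0.04 (adjusted p = 0.946).

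The P7 animal of run 3 lay on the same side of the P3 mean as the run 2 animals for 8 of the 10 called genes and beyond all P3 animals for 7. Because this library came from another run, the difference between runs was estimated for each gene from 3 animals sequenced in both, F28 animal 2 and T35 animals 6 and 11. The median size of this difference was 0.253 on the log2 scale, and 494 genes differed by more than 1. After it was subtracted the numbers were again 8 and 7. Of all 13791 genes tested, 43.2% had this animal beyond all P3 animals on the P7 side as measured, and 41.5% after the subtraction. The genes that rose accounted for 7 of the 8 in both cases, with gene A as the exception. Of the 2 genes that fell, ENSOCUG00000004635 was on the P7 side as measured (-0.73) but not after the subtraction (0.11), and ENSOCUG00000007372 was so only after it (0.05 and -0.34). Among the 1287 genes at an unadjusted p under 0.05 the third animal was on the same side for 1010 (78.5%) as measured and for 1062 (82.5%) after the subtraction. Over all genes tested these shares were 62.8% and 63.3%. The same P3 animals stand on both sides of each of these counts, so a share above an even split is built in.

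When single animals were compared, most P7 and P3 animals differed in more genes than the P3 animals did among themselves. Over 8889 genes with a mean of at least 5 CPM, pairs of P3 animals differed by more than 2-fold in 223 to 285 genes, and the 2 P7 animals of run 2 in 322. Pairs of a P7 and a P3 animal differed in 275 to 434 genes, and 5 of these 6 pairs had 403 or more. The exception was P7 animal 4 with P3 animal 3, at 275 genes, within the range of the P3 pairs. The P7 animal of run 3, after subtraction of the run difference, differed from the P3 animals in 389 to 548 genes and from the other P7 animals in 418 and 430. No test was made on these pairs, since each animal stands in several of them.

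**Figure D4:**
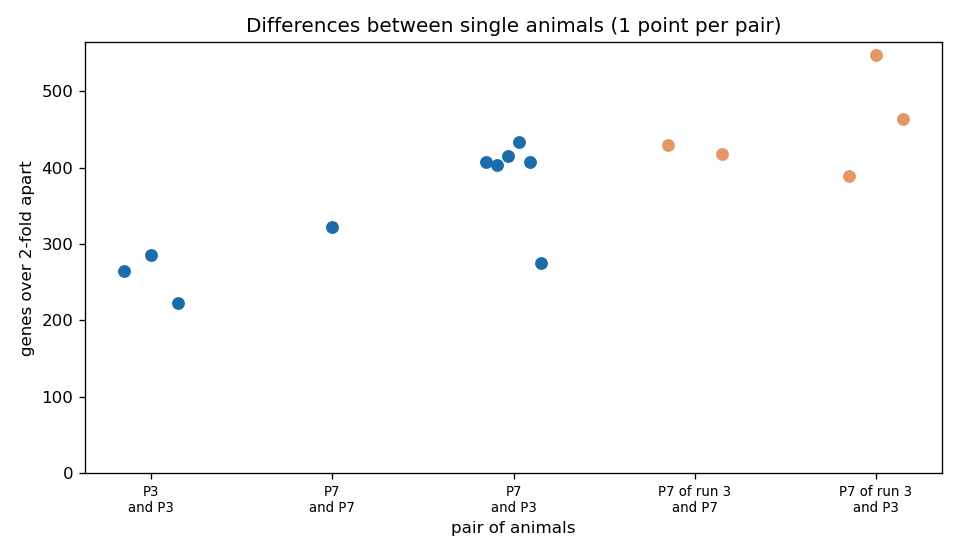
Number of genes more than 2-fold apart between 2 animals, out of 8889 genes with a mean of at least 5 CPM, with 1 point per pair. Orange points hold the P7 animal of run 3 after subtraction of the run difference. P3 pairs lie at 223 to 285 genes and pairs of P7 and P3 animals of run 2 at 275 to 434.

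For well expressed genes the data bounded the change from P3 to P7. Of the 1988 genes with at least 100 CPM, the 95% confidence interval of the fold change lay within 2-fold in either direction for 94.1%, and of the 5496 genes at 10 to 100 CPM for 87.3%. At 1 to 10 CPM this held for 26.1% of 4167 genes, and below 1 CPM for 0 of 2140, where a change of 2-fold could thus not be bounded. Genes at 1 to 10 CPM included 2 of the called genes, ENSOCUG00000010247 and gene A. Over all genes the interval lay within 2-fold for 7757 genes (56.2%). Fitted changes above 2-fold became rarer with the level, from 30.9% of genes below 1 CPM to 0.805% of those with at least 100 CPM. Fitted changes above 2-fold were upward for 596 genes and downward for 591 in all. By level the numbers were 296 and 366 below 1 CPM, 204 and 190 at 1 to 10 CPM, 88 and 27 at 10 to 100 CPM, and 8 and 8 from 100 CPM upwards. The 20 most abundant genes held 15.6% of the counts, and none passed, with the lowest edgeR adjusted p at 0.464. Since only 0.116% of all genes tested passed the adjusted p, a count of 0 among 20 says little. At an unadjusted p under 0.05, 1 of the 20 was higher and 1 lower at P7, against 9.33% of all genes. Of these 20 genes 3 were among those that set P7 animal 3 apart, and the standard error of a log2 fold change reached 2.23 there.

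P7 levels were also set beside term pups of the same gestational age in run 2, T35 animals 6 and 11. Over all genes 74 (0.537%) differed, 65 higher and 9 lower at P7. Genes B, C, D and F were above T35, with log2 differences of 1.11 (adjusted p = 0.0184), 1.12 (adjusted p = 0.035), 2.25 (adjusted p = 0.000505) and 1.72 (adjusted p = 0.000411). For ENSOCUG00000013106 and genes A and E the log2 differences were -0.11, 0.44 and 0.77, and none passed (adjusted p = 0.941, 0.591 and 0.0586). Both genes that fell were lower than at T35 but did not meet the call, by log2 differences of -0.73 and -0.47 (adjusted p = 0.0434 and 0.471). The P7 animals stand in this comparison and in that with P3.

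The change from P3 to P7 was then compared with the change from T31 to T35, which spans the same gestational ages in term pups. T31 to T35 covers the first 4 days after term birth, and P3 to P7 covers days 3 to 7 after preterm delivery. Mode of delivery and feeding also differed, so a difference of the changes cannot be assigned to preterm birth alone. The 11 libraries were the 5 of P3 and P7 and 3 each of T31 and T35 from run 1, and the run cancels from the difference only if its effect is additive on the log scale. Of 13987 genes tested, 63 (0.45%) changed between T31 and T35, and 3 (0.0214%) changed differently in preterm and term pups. None of the 10 genes called between P3 and P7 was among these 3. With T31 and T35 libraries of run 3, 447 of 13494 genes (3.31%) changed between T31 and T35 and 28 (0.207%) changed differently, 5 with a higher and 23 with a lower preterm change. Gene D was 1 of these 28. No gene was called with both sets of term libraries. With run 1, 0 genes were called by limma-voom (1114 at an unadjusted p under 0.05), and edgeR called 0 when any one P3 or T35 animal was left out (840 to 1359 at an unadjusted p under 0.05). Other settings raised the count, to 47 with DESeq2 and to 16 and 21 without P7 animals 3 and 4.

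The 3 genes called with run 1 moved mainly in the term pups. ENSOCUG00000016669 was at 6098 to 8126 CPM at T31 and 2048 to 2321 CPM at T35, and stayed between 3554 and 4710 CPM in the P3 and P7 animals of run 2. The difference of the changes was 1.56 ± 0.216 (SE, edgeR adjusted p = 0.0465). ENSOCUG00000025022 fell in term pups from 36.4 to 73.1 CPM at T31 to 10.7 to 18.7 CPM at T35. In preterm pups it was at 6.75 to 8.57 CPM at P3 and at 20.0 and 13.7 CPM at P7, while the P7 animal of run 3 had 8.999 CPM, close to the P3 animals. T35 animals 6 and 11 also had less of it in run 2, with 6.13 and 8.64 CPM, than in run 1, with 10.7 and 18.7 CPM. The difference of the changes was 2.85 ± 0.413 (adjusted p = 0.0465).

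ENSOCUG00000029090 had the opposite term course, from 636 to 817 CPM at T31 to 2176 to 2714 CPM at T35. Its preterm levels were 5948 to 8026 CPM at P3 and 4608 and 7568 CPM at P7, and the difference of the changes was -1.99 ± 0.285 (adjusted p = 0.0465). This gene also differed between runs, since T35 animals 6 and 11 had 2361 and 2176 CPM in run 1 and 8106 and 8134 CPM in run 2. In run 3 these 2 animals had 6396 and 6078 CPM, and the T31 pups, which were other animals than in run 1, had 3831, 4386 and 3469 CPM. Whether the run effect was additive for this gene was not tested. With term libraries of run 3 the 3 differences were 1.18, 2.42 and -0.89, of the same sign in each case, and the adjusted p were 0.171, 0.119 and 0.229.

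The fitted term change from T31 to T35 had the same sign as the preterm change for 9 of the 10 genes called between P3 and P7 with run 1 and for 8 with run 3. Over all genes tested in both fits the signs were the same for 51.7% with run 1 and 54.3% with run 3. Sizes are not compared, because the 10 genes were chosen for a large preterm change. ENSOCUG00000013106 was the 1 gene of the 10 that was also called between T31 and T35 in run 1, and with run 3 there were 3, ENSOCUG00000013106, ENSOCUG00000010247 and ENSOCUG00000004635. Gene D had the opposite sign in both runs, and ENSOCUG00000007372 in run 3 only, where its term change was 0.06. For gene D the term levels were 10.8 to 12.4 CPM at T31 and 7.34 to 9.54 CPM at T35 in run 1, against the rise from 20.4 to 31.7 CPM at P3 to 51.9 and 57.9 CPM at P7. The difference of its changes was 1.45 on the log2 scale with run 1 (adjusted p = 0.235) and 1.92 with run 3 (adjusted p = 0.0495). For ENSOCUG00000007372 the term level stayed near 173 to 189 CPM at T31 and 158 to 175 CPM at T35, and the difference of the changes was -1.01 with run 1 (adjusted p = 0.159) and -1.12 with run 3 (adjusted p = 0.0883).

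**Figure D5:**
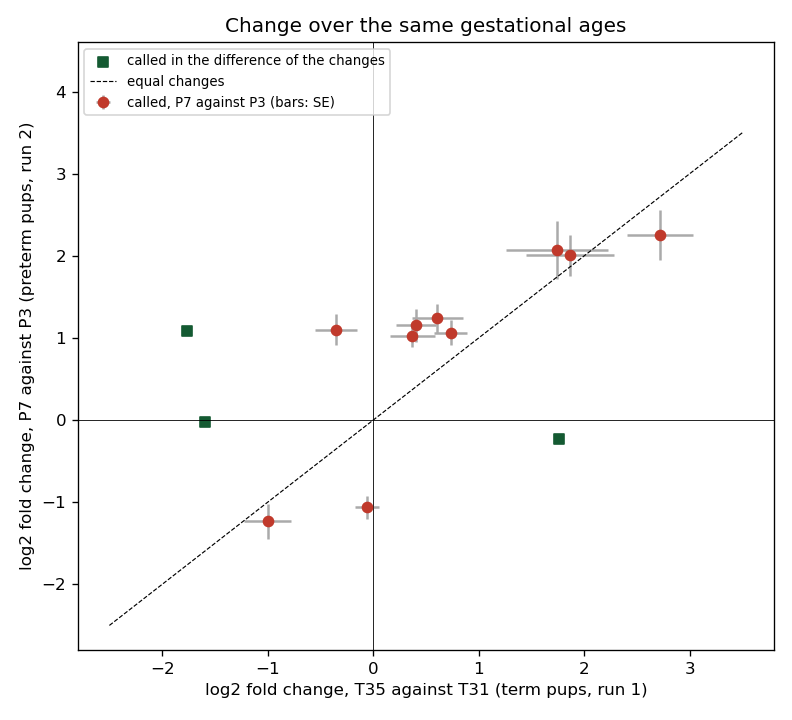
Log2 fold change from P3 to P7 in preterm pups of run 2 (vertical axis) against that from T31 to T35 in term pups of run 1 (horizontal axis). Red points are the 10 genes called between P3 and P7 with standard errors as bars, green squares the 3 genes whose changes differed between preterm and term pups, and the dashed line marks equal changes. The red points were chosen on the vertical axis, so only their spread along the horizontal axis is open, and it reaches 2.72.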

How the data were processed

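Lung RNA of preterm rabbits at P3 and P7 was analysed together with P0 and term animals. The deposited table holds whole-number read counts per gene, without normalization, which the authors made with BBduk, STAR on OryCun2.0 and HTSeq-count on the Ensembl annotation. A custom script of theirs added reads in unannotated 3′ UTRs. Whether the table includes them, and the tool versions, are not given in the sources used here. All 54 columns were mapped to samples and runs by their titles. The table held 0 entries that name no gene and 0 identical libraries.

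Counts were tested with edgeR 4.0.16 (R 4.3.3): TMM, a minimum of 0.5 CPM in 3 or more libraries, a robust quasi-likelihood fit and Benjamini-Hochberg adjustment over all genes. The fit held the 12 libraries of run 2 (3 P0, 3 P3, 2 P7, 2 F28, 2 T35) with 7 residual degrees of freedom, so the spread was shared by 5 groups. The study used limma-voom, an alternative here (limma 3.58.1), as were DESeq2 1.42.0, other normalization, filters and samples. The methods state that lungs came from different dams, so animals are the replicates. Single values of 2 against 3 animals were not tested, since the smallest two-sided exact p is 0.2. The P7 library of run 3 was compared on log2 CPM with a prior count of 2. Run 2 libraries held 6683823 to 7989730 counts, and 0.5 CPM is only a few reads. Reads carry no molecular identifiers, so a count is not a number of independent molecules. Genes counted without a name may share reads with overlapping or near-identical genes, which was not checked.

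The scripts were tested on simulated data. The comparison, the gene lists, the rule for naming genes and the tests were chosen with earlier results of these data known. The lists of lung, cell type and pathway genes were by symbol and could not be applied, because 0 of the identifiers matched the RefSeq table of assembly mOryCun1.1. The rule for naming genes took called genes with a symbol whose groups did not overlap, whose P7 animal of run 3 lay on the same side and whose mean was at least 2 CPM, by fold change, and therefore named none. The identifiers printed, and the 12 and 4 genes that set P7 animal 3 apart, were chosen after their values were seen. That set was defined by more than 16-fold after adding 0.5 CPM, at a level of at least 10 CPM. The plots were made in matplotlib 3.10.9 under Python 3.11.15.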

Additional observations from a re-analysis of the deposited data

Results flagged for a closer look

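The change from P3 to P7 in preterm pups differed from the change from T31 to T35 in term pups for 3 of 13987 genes, by edgeR's quasi-likelihood test of the difference itself. For ENSOCUG00000016669 the preterm minus term difference was 1.56 on the log2 scale, from a preterm change of -0.03 and a term change of -1.59. For ENSOCUG00000025022 it was 2.85, from 1.09 and -1.76. For ENSOCUG00000029090 it was -1.99, from -0.23 and 1.76, with the lower P7 level in P7 animal 3. This gene also differed between runs 1 and 2 in the same T35 animals. Each had an edgeR adjusted p of 0.0465, close to the limit, and with the term libraries of run 3 each had the same sign and an unadjusted p under 0.05 but none passed the adjustment. Preterm and term libraries come from different runs in both comparisons. Preterm and term pups also differed in days since delivery, mode of delivery and feeding.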

How the results depend on the processing

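The count of 10 genes called between P7 and P3 moved with the samples and the tool. It was 28 with the 5 libraries alone, 27 with the 8 preterm libraries of run 2, 63 with DESeq2, 30 without a filter and 16 by the adjusted p alone. Those fits called 9, 10, 10, 9 and 10 of the 10 genes. Limma-voom gave 15, another normalization (RLE) 10 and a minimum of 10 counts in every library 9. When the P7 animal of run 3 entered, in a fit of 21 animals with a term for the run, 1 gene was called. Leaving out 1 animal gave 0 to 8 calls: 0 without P7 replicate 3, 7 without P7 replicate 4, and 8, 1 and 6 without P3 replicates 1, 2 and 3. The 8, 1 and 6 calls without P3 replicates 1, 2 and 3 held 4, 0 and 5 of the 10 genes. Fits without a P7 animal hold 1 P7 library, which is assumed to vary like the other groups. The cause of these shifts was not tested.

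A replicate block in the fit of the 8 preterm libraries gave 5 calls, 1 of them among the 10. P3 and P7 of run 2 share only number 3. The deviations of same-numbered preterm animals correlated by -0.143 to 0.146, and those of differently numbered animals by -0.146 to 0.143. Deviations of 2 P7 animals from their mean are opposite by construction, so these values cannot tell whether the numbers pair the animals.

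The count of 3 genes whose changes differed between preterm and term pups was 28 with term libraries of run 3, 47 with DESeq2, 5 without a filter, 3 with RLE and 3 by the adjusted p alone. It was 0 with limma-voom (1114 genes at an unadjusted p under 0.05) and 0 where each library had to hold 10 or more counts (813). It was also 0 with term libraries of runs 1 and 3 together (988), an alternative chosen after seeing the data. Leaving out 1 animal gave 0 to 21 calls: 16 without P7 replicate 3, 21 without P7 replicate 4, 1, 6 and 2 without T31 replicates 1, 10 and 15, and 0 without any one P3 or T35 replicate (840 to 1359 genes at an unadjusted p under 0.05). The 10 genes called between P3 and P7 kept their sign in each alternative that tested them. This is largely built in, since the alternatives reuse the libraries on which the genes were chosen. Counts for the gene lists and scores by animal were not run, because the identifiers could not be paired with symbols. Depth limits the genes below 10 CPM, where few intervals lay within 2-fold.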
